A study of Mus musculus with 40 samples.

Results

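The enzymes that write, copy and remove 5-methylcytosine, with factors that steer them, were followed as a family of 9 genes. These were the methyltransferase genes *Dnmt1*, *Dnmt3a* and *Dnmt3b* with the cofactor gene *Dnmt3l*, and the dioxygenase genes *Tet1*, *Tet2* and *Tet3*. The other members were the maintenance gene *Uhrf1* and *Dppa3*, whose product opposes UHRF1. All 9 were taken by name from the 56748 genes of the gene count table and were among the 23399 genes with enough reads to be tested. The data are RNA sequencing counts of 40 cultures, some of XY mouse embryonic stem (mES) cells and some of the epiblast-like cells (EpiLCs) derived from these. mES cells were held in the naive state without serum or feeder cells, in inhibitors of MEK and GSK3 with LIF, and EpiLCs had been in 20 ng/mL FGF and 12 ng/mL Activin A for 48 h. Wild type (WT) cells, with 8 libraries at each stage, were set against 3 mutants: a knockout of *Lbr*, the gene of the lamin B receptor (LBRKO), cells without the lamins encoded by *Lmna*, *Lmnb1* and *Lmnb2* (TKO), and TKO cells in which *Lbr* was disrupted too (QKO), with 4 libraries each. WT and TKO were separate lines from littermate embryos. QKO was a single clone made from TKO, with a frameshift in one copy of *Lbr* and a deletion that keeps the frame in the other. Several LBRKO clones were made from WT cells, and the labels do not say which clone or clones the LBRKO libraries come from. For both kinds of *Lbr* mutant mES cells the study reported that immunostaining found no LBR protein. The study's karyotypes listed an extra chromosome 8 in TKO cells and, in part of the WT cells, extra copies of chromosomes 6 and 8, and no member lies on chromosome 8. Each library came from its own culture well, so the errors and p-values below measure spread between wells rather than between independently made lines.

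DNA methylation in mammals is laid down by DNMT3A and DNMT3B, which DNMT3L, a relative without catalytic activity, binds and stimulates. At replication UHRF1 recognises half-methylated sites and brings DNMT1 to them, while DPPA3 (also called STELLA or PGC7) binds UHRF1 and keeps it from chromatin. TET enzymes oxidise 5-methylcytosine as a step towards its loss. Naive mES cells in MEK and GSK3 inhibitors are known for low DNA methylation, and the passage to the epiblast is known for its rise.

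The 3 lamin genes were lower than WT in TKO and QKO, least so *Lmna*. *Lmnb1* (log2 fold change -5.92 in TKO and -5.21 in QKO mES cells) and *Lmnb2* (-4.61 and -5.36) were far below WT, *Lmna* was at -1.86 and -1.60 in mES cells and at -0.55 and -0.43 in EpiLCs (6.95 to 9.43 CPM in QKO, overlapping 9.28 to 13.0 CPM in WT), while *Lbr* mRNA in LBRKO fell short of absence: mES replicates 1 and 2 held 274 and 253 CPM (counts per 1000000 counts of the library, its total scaled by the TMM method) and replicates 3 and 4 held 145 and 162 CPM, against 347 to 407 CPM in WT. LBRKO EpiLC replicates 1 and 2 held 403 and 392 CPM and replicates 3 and 4 held 196 and 233 CPM, against 364 to 513 CPM in WT, so the mRNA level alone does not mark a library as mutant. Libraries held 22.6 to 48.9 M counts (M for 1000000). WT replicates 1 to 4 (25.4 to 33.5 M) had the depth of the TKO and QKO libraries (22.6 to 33.6 M) and WT replicates 5 to 8 (39.4 to 48.9 M) that of LBRKO (39.7 to 48.1 M). The labels name no batch, so values against each WT set are given beside the main differences they bear on. Stage labels matched the sums of their markers: 6 naive marker genes summed to 3972 to 4666 CPM in mES cells of the WT and 106 to 174 CPM in its EpiLCs, and 6 primed markers to 91.8 to 124 CPM and 717 to 858 CPM. Within the primed list *Dact2* went the other way, with a log2 fold change of -1.23 from WT mES cells to WT EpiLCs. Sums over 6 primitive endoderm markers were 18.9 to 21.7 CPM in LBRKO mES cells against 8.11 to 9.79 CPM in WT. Over 4 mesoderm markers they were 9.59 to 10.5 CPM in LBRKO mES cells against 1.40 to 6.31 CPM in WT. Over 6 trophectoderm markers they were 25.3 to 27.0 CPM in QKO EpiLCs against 10.8 to 13.5 CPM in WT EpiLCs. In LBRKO mES cells the primitive endoderm genes past both thresholds defined below were *Dab2* (log2 fold change 2.23) and *Pdgfra* (1.18). Of the mesoderm list this was *T* (1.77) alone, and of the trophectoderm list in QKO EpiLCs *Gata3* (2.09) and *Eomes* (1.43). These sums therefore do not show that the lists were higher as a whole. The primitive endoderm sum in QKO EpiLCs (10.3 to 15.2 CPM against 11.5 to 14.8 CPM in WT EpiLCs) held opposite moves. There *Gata6* (log2 fold change 2.96) and *Pdgfra* (2.56) were higher and *Dab2* (-1.39) was lower than in WT. Sums over 6 markers of 2-cell-like cells were 7.19 to 10.5 CPM in WT EpiLCs and at most 2.51 CPM in any mutant EpiLC library. The 5 fibroblast markers summed to 9.47 to 23.7 CPM in EpiLCs and 2.33 to 6.48 CPM in mES cells. From WT mES cells to WT EpiLCs, *Dcn* (10.5), *Thy1* (2.73) and *Col1a2* (1.04) of that list were higher past 2-fold. In WT libraries 1 of the 5 had no read, so the sum does not show that fibroblasts were present. The part of such cells, if any, in the results was not tested. In such bulk samples fewer cells of a type and less RNA per cell cannot be told apart.

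The start regions of 3 members are shown because these genes parted most between genotypes or stages and because their CpG content, the substrate of the family itself, differs. Each is 300 bases of GRCm39 from 250 bases before to 50 after the start of the reference transcript of GENCODE M39, 5′ to 3′ on the gene's own strand, with every CG in capitals. The region of *Dnmt3l* is chr10:77885426-77885725 (plus strand), that of *Dppa3* is chr6:122603119-122603418 (plus strand) and that of *Dnmt3b* is chr2:153491073-153491372 (plus strand).
*Dnmt3l*: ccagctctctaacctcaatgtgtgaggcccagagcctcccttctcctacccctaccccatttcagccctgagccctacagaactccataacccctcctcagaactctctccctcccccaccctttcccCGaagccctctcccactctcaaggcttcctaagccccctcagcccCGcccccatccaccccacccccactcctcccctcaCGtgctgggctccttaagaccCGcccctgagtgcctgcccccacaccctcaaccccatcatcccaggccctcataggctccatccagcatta
*Dppa3*: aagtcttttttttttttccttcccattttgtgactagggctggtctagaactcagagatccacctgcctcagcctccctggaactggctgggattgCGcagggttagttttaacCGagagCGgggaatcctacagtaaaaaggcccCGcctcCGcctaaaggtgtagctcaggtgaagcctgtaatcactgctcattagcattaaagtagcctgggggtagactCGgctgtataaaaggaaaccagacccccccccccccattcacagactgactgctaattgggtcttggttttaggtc
*Dnmt3b*: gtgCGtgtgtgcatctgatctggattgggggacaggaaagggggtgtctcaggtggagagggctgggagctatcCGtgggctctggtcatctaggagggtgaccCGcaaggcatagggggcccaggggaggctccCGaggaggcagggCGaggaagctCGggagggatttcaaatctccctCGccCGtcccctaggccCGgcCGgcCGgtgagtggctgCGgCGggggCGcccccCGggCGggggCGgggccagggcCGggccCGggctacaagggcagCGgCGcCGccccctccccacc

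The *Dnmt3l* start region held 4 CG and that of *Dppa3* held 6, against a median of 11 (quartiles 4 and 21) over the same window of 21770 protein-coding genes, so 24.9% and 34.2% of start regions had fewer. *Dnmt3b* with 22 CG and *Tet2* with 20 stood above the median, at 76.7% and 72%. *Dnmt3a* and *Tet3*, with 46 CG each, stood highest, 99.1% of start regions having fewer. *Dnmt1* (12) and *Uhrf1* (10) lay near the median, and *Tet1* (5) lay low, between *Dnmt3l* and *Dppa3*. Which start these cells used was not measured, and for some members the annotated gene begins before the reference start. *Dnmt3l* begins at -7.895 kb from it, and *Tet1*, on the minus strand with its reference start at 62715793, reaches 62744775. The CG count was read on one strand, since CG is its own reverse complement, and no methylation was measured in these libraries.

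In WT cells the passage from mES cells to EpiLCs moved 6 of the 9 genes past both thresholds used throughout, an adjusted p under 0.05 and a fold change over 2 ("rose" and "fell" below). Of all genes tested, 31.1% did so in this comparison. *Dnmt3a*, *Dnmt3b*, *Dnmt3l* and *Tet3* rose, *Dppa3* and *Tet2* fell, *Uhrf1* and *Dnmt1* were lower by under 2-fold, and *Tet1* was the gene whose adjusted p missed the threshold. With 8 of 9 genes past the adjusted p at any fold, the background was 64.3%.

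**Figure D1:**
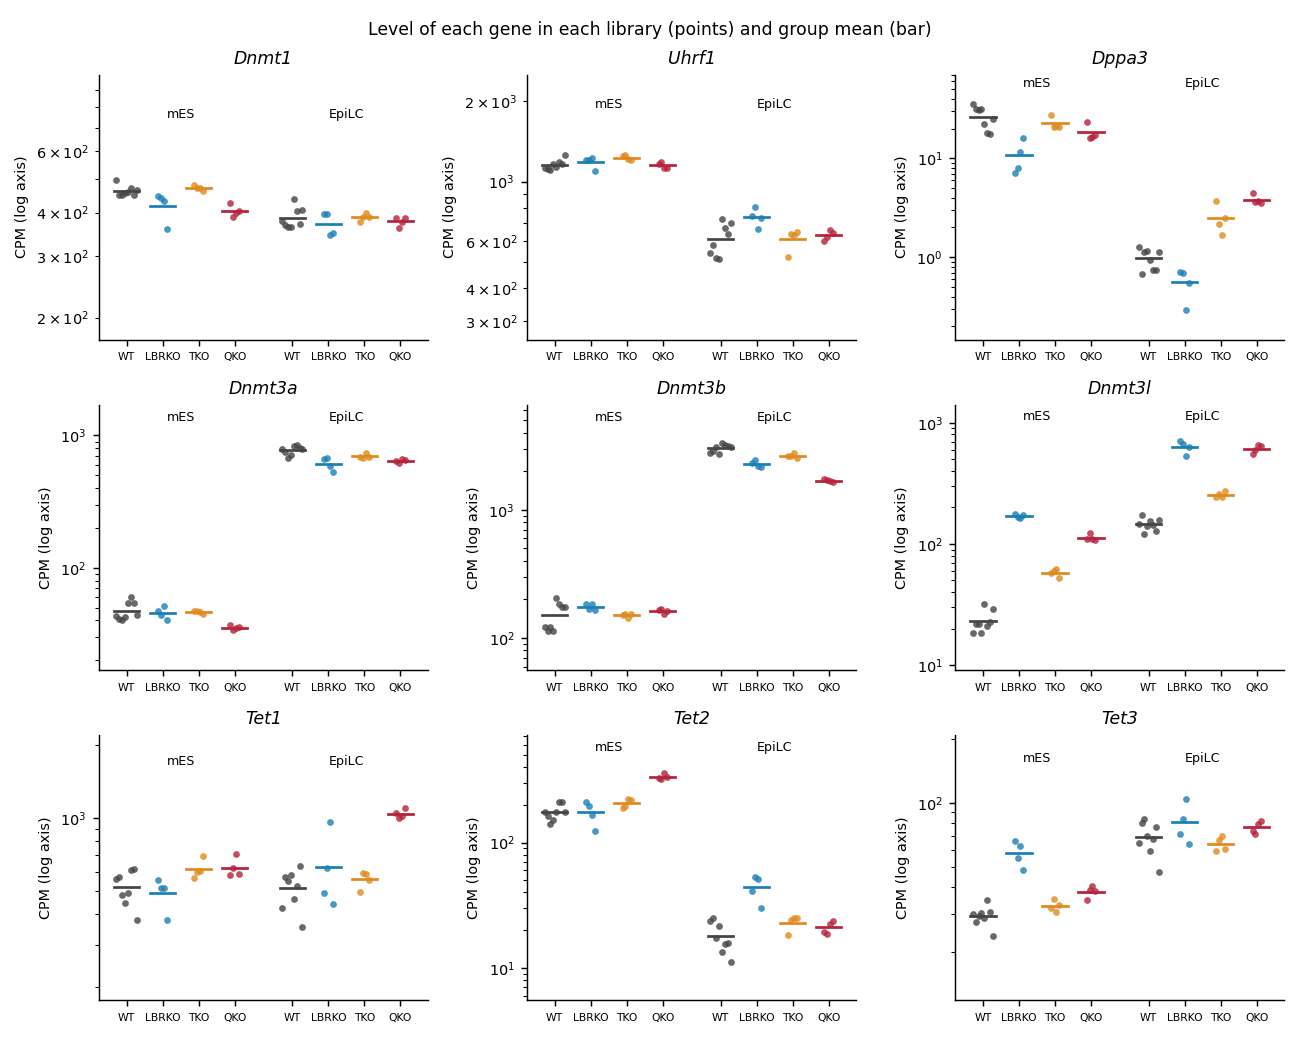
Level of each of the 9 genes (CPM, log axis) in each of the 40 libraries, by genotype and stage; points are libraries and bars are group means. *Dnmt3l* in LBRKO mES cells (164 to 178 CPM) overlaps the upper end of WT EpiLCs (120 to 174 CPM), and *Tet1* in QKO EpiLCs (995 to 1099 CPM) lies above every other library.

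Among the de novo genes, *Dnmt3b* (ENSMUSG00000027478.16, chr2:153491370-153529650) went from a lowest, median and highest WT mES library of 113, 147 and 206 CPM to 2722, 3084 and 3306 CPM in WT EpiLCs. The catalytic partner *Dnmt3a* (ENSMUSG00000020661.16, chr12:3856007-3964443) went from 40.1, 43.4 and 59.7 CPM to 672, 787 and 854 CPM. Neither gene's stages overlapped. The log2 fold changes were 4.32 ± 0.10 (SE, 20-fold, adjusted p = 1e-33) for *Dnmt3b* and 4.04 ± 0.07 (16.4-fold, adjusted p = 2.1e-36) for *Dnmt3a*. *Dnmt3l* (ENSMUSG00000000730.14, chr10:77877781-77899456) started at 18.3, 21.8 and 31.9 CPM and reached 120, 145 and 174 CPM, a smaller rise of 2.65 ± 0.09 (adjusted p = 1.3e-27).

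On the maintenance side the WT passage was downward. *Uhrf1* (ENSMUSG00000001228.15, chr17:56610321-56630486) held 1101, 1149 and 1258 CPM (lowest, median and highest) in mES cells and 513, 609 and 723 CPM in EpiLCs, without overlap, a log2 change of -0.92 ± 0.06 (adjusted p = 1.2e-17) that lay just under 2-fold. In WT replicates 1 to 4 alone it was -1.06, past 2-fold, and in replicates 5 to 8 it was -0.79. *Dnmt1* (ENSMUSG00000004099.17, chr9:20818505-20871184) was at 448 to 497 CPM and then 364 to 437 CPM, a change of -0.26 ± 0.04 (adjusted p = 1.9e-06). *Dppa3* (ENSMUSG00000046323.9, chr6:122603369-122607231), whose product opposes UHRF1, held 17.6, 28.0 and 35.2 CPM in mES cells and 0.679, 1.03 and 1.27 CPM in EpiLCs. The change was -4.78 ± 0.19 (27.4-fold, adjusted p = 9.8e-25). Over the whole series *Dppa3* had 14 to 1113 reads per library, with the lowest count of the 9 genes.

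The TET genes parted. *Tet2* (ENSMUSG00000040943.13, chr3:133169440-133250900) held 140, 174 and 212 CPM in WT mES cells and 11.1, 16.6 and 24.8 CPM in WT EpiLCs, with no overlap, and fell by 3.30 ± 0.14 (adjusted p = 2.8e-24). *Tet3* (ENSMUSG00000034832.16, chr6:83339355-83436066) rose from 23.7, 29.7 and 35.1 CPM to 47.2, 69.0 and 84.3 CPM, again without overlap (1.22 ± 0.09, adjusted p = 1.7e-15). *Tet1* (ENSMUSG00000047146.18, chr10:62640349-62744775) spanned 381 to 616 CPM in mES cells and 355 to 636 CPM in EpiLCs, and its change of -0.02 ± 0.12 missed the threshold (adjusted p = 0.88).

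Levels of different genes were compared per length, as CPM per kb of the length over which reads were counted. In WT mES cells *Uhrf1* stood first with a mean of 271 CPM per kb and *Dnmt1* next with 62.6, followed by *Tet1* (33.7), *Dppa3* (29.6) and *Dnmt3b* (29.6), whose library ranges overlapped one another. *Tet2* (10.4) and *Dnmt3l* (7.75) also overlapped, and *Dnmt3a* (2.84) and *Tet3* (1.76) closed the order without overlap. In WT EpiLCs *Dnmt3b* led with 592 CPM per kb, ahead of *Uhrf1* (143). *Dnmt1* (52.4), *Dnmt3l* (48.7), *Dnmt3a* (46.7) and *Tet1* (33.2) followed, each overlapping the next although *Dnmt1* lay above *Tet1* in every library, then came *Tet3* (4.12), and *Dppa3* (1.09) and *Tet2* (1.06) overlapped at the bottom. *Dnmt3l* was the gene whose place changed most with genotype. From the seventh place in WT mES cells, it was the second in LBRKO mES cells (57.2 CPM per kb, overlapping *Dnmt1* at 56.7), the fourth in QKO (37.7, overlapping *Tet1* at 40.4) and the sixth in TKO (19.4). In EpiLCs it moved from the fourth in WT to the second in LBRKO (212, overlapping *Uhrf1* at 173) and in QKO (205, above *Uhrf1* at 148 in every library), and to the third in TKO (85.4). With the length of the longest transcript in place of the counted length, between 2 and 6 of the 9 places changed in each group, and *Dnmt3l* was the third in WT EpiLCs and QKO mES cells and the fifth in TKO mES cells.

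Against WT of the same stage, the mutants moved 1 to 3 of the 9 genes past both thresholds. In LBRKO mES cells 2 genes did so (*Dnmt3l* up, *Dppa3* down) where 6.31% of all tested genes did, and 4 passed the adjusted p at any fold (24.0% of all). In TKO mES cells *Dnmt3l* rose alone (background 6.45%), and it was also the single gene past the adjusted p (21.3%). QKO mES cells had 1 gene past both thresholds, *Dnmt3l* again (17.2%), and 6 past the adjusted p (44.5%). Among EpiLCs, LBRKO raised *Dnmt3l* and *Tet2* (2 genes, background 5.67%), with 6 past the adjusted p (25.2%). *Dppa3* was the 1 gene that rose in TKO EpiLCs (2.91%), where 2 passed the adjusted p (14.7%), and QKO EpiLCs raised 3, *Dppa3*, *Dnmt3l* and *Tet1* (21.2%), with 5 past the adjusted p (54.8%). The median log2 fold change of the 9 genes lay between -0.01 in LBRKO mES cells and 0.23 in LBRKO EpiLCs, beside medians of all tested genes between -0.04 and 0.02. All comparisons at a stage share the WT libraries.

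**Figure D2:**
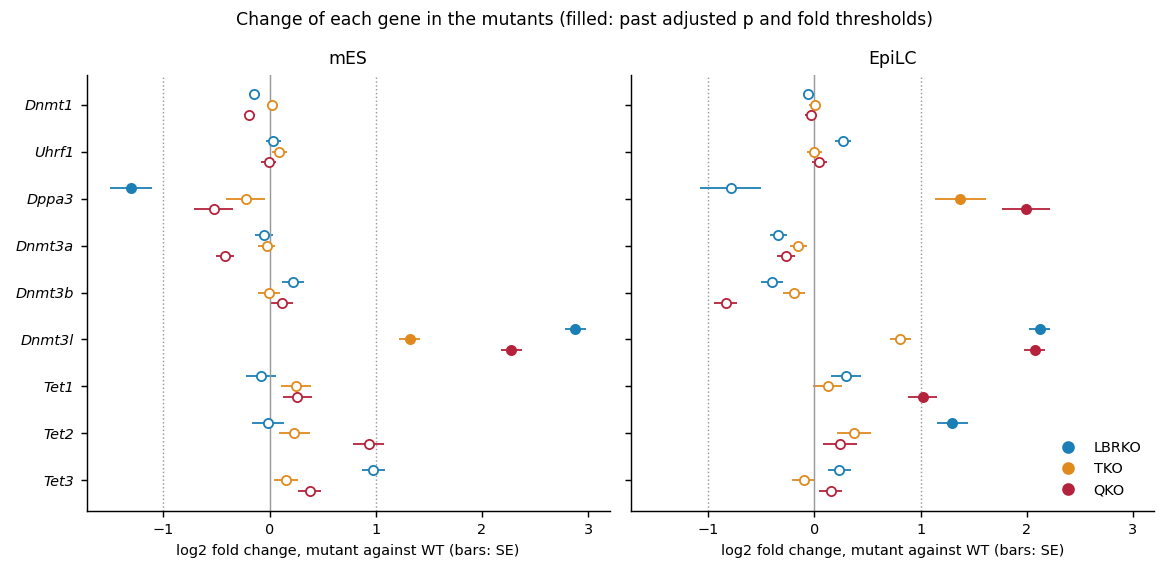
Log2 fold change of each gene in each mutant against WT of the same stage (x axis), with standard errors as bars and dotted lines at 2-fold; filled points had an adjusted p under 0.05 and a fold over 2. *Dnmt3l* lies to the right in each mutant, between 0.81 in TKO EpiLCs and 2.88 in LBRKO mES cells, and *Dppa3* lies to the left in LBRKO and to the right in TKO and QKO EpiLCs.

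*Dnmt3l*, which the study itself singled out from these samples, was the gene that moved furthest in the mutants at the naive stage. WT mES libraries held 18.3, 21.8 and 31.9 CPM (lowest, median and highest). The 4 LBRKO mES libraries held 178, 168, 164 and 174 CPM, the TKO ones 57.7, 60.1, 61.6 and 52.2 CPM, and the QKO ones 110, 123, 109 and 107 CPM. None of the 3 mutants overlapped WT or one another, and the LBRKO mES libraries overlapped the upper end of WT EpiLCs (120 to 174 CPM). The rise was 2.88 ± 0.10 on the log2 scale in LBRKO (7.37-fold, adjusted p = 1.5e-24), 1.32 ± 0.10 in TKO (2.5-fold, adjusted p = 6.5e-14) and 2.28 ± 0.10 in QKO (4.85-fold, adjusted p = 2.5e-22). Compared directly, QKO mES cells lay below LBRKO by 0.60 ± 0.12 (adjusted p = 3.5e-05) and above TKO by 0.96 ± 0.12 (adjusted p = 3.5e-08), both under 2-fold.

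At the EpiLC stage the LBRKO libraries held 704, 673, 528 and 628 CPM of *Dnmt3l* and the QKO libraries 551, 595, 661 and 644 CPM. TKO libraries held 246, 259, 244 and 272 CPM. Each mutant lay wholly above WT (120 to 174 CPM), and LBRKO and QKO overlapped. *Dnmt3l* rose by 2.12 ± 0.10 in LBRKO (adjusted p = 1.3e-20) and 2.07 ± 0.10 in QKO (adjusted p = 2.1e-21), and was higher by 0.81 ± 0.10 in TKO (adjusted p = 3.3e-08), under 2-fold. QKO exceeded TKO by 1.26 ± 0.12 (adjusted p = 8.5e-12), and its difference from LBRKO was -0.05 ± 0.11 (adjusted p = 0.78). Against WT replicates 1 to 4 or 5 to 8 alone, *Dnmt3l* in mES cells differed by 3.08 and 2.71 in LBRKO, 1.52 and 1.15 in TKO and 2.48 and 2.10 in QKO.

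*Dnmt3a* and *Dnmt3b* did not pass both thresholds in any mutant against WT, and their differences pointed down in EpiLCs. For *Dnmt3b*, LBRKO EpiLCs held 2328, 2436, 2208 and 2171 CPM and QKO EpiLCs 1735, 1712, 1682 and 1642 CPM, all below the lowest of the WT libraries (2722 CPM), while TKO EpiLCs at 2628, 2625, 2786 and 2559 CPM reached into the WT range. The log2 differences were -0.40 ± 0.10 in LBRKO (adjusted p = 0.0029) and -0.84 ± 0.11 in QKO (adjusted p = 1.1e-08), and QKO lay below LBRKO by 0.43 and below TKO by 0.65 (adjusted p = 0.0027 and 2.3e-05). *Dnmt3a* was at 660, 674, 588 and 533 CPM in LBRKO EpiLCs and 645, 620, 662 and 652 CPM in QKO EpiLCs against 672 to 854 CPM in WT. Only a single LBRKO library, at 674 CPM, overlapped WT, and the differences were -0.34 ± 0.08 (adjusted p = 0.0014) and -0.27 ± 0.08 (adjusted p = 0.0049). In LBRKO and QKO EpiLCs, then, the level of the cofactor gene *Dnmt3l* was higher while those of both catalytic genes were lower. The 6 primed markers summed to 572 to 690 CPM in LBRKO EpiLCs, below WT (717 to 858 CPM), and to 812 to 934 CPM in QKO EpiLCs, and the part of this in the *Dnmt3a* and *Dnmt3b* values was not tested.

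In mES cells the sign of the *Dnmt3b* difference depended on the WT libraries. WT replicates 1 to 4 held 113 to 121 CPM and replicates 5 to 8 held 174 to 206 CPM, and the mutants lay between these or overlapped the second set (166 to 185 CPM in LBRKO, 144 to 154 in TKO, 155 to 170 in QKO). Against the first set the log2 differences were 0.58, 0.36 and 0.48 for LBRKO, TKO and QKO, and against the second they were -0.07, -0.29 and -0.17. Over all 8 WT libraries none passed the adjusted p (0.12, 0.99 and 0.37). *Dnmt3a* in QKO mES cells, at 36.6, 33.8, 35.3 and 35.6 CPM, lay below all WT libraries (40.1 to 59.7 CPM) by 0.42 ± 0.09 (adjusted p = 7.9e-05), and by 0.37 below LBRKO and 0.39 below TKO (adjusted p = 0.0018 and 0.0024). In LBRKO and TKO mES cells *Dnmt3a* overlapped WT and turned sign between the WT sets (0.13 and -0.21 in LBRKO, 0.16 and -0.19 in TKO).

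Turning to maintenance, *Dnmt1* and *Uhrf1* were the steadiest genes across genotypes. *Dnmt1* was lower in LBRKO mES cells (446, 440, 431 and 358 CPM, -0.14 ± 0.05, adjusted p = 0.049) and QKO mES cells (425, 389, 400 and 404 CPM, -0.19 ± 0.05, adjusted p = 0.0037) than in WT (448 to 497 CPM), without overlap and by at most 1.14-fold, the LBRKO difference missing the threshold against WT replicates 5 to 8 (-0.14), and no mutant EpiLC passed the adjusted p. *Uhrf1* was at 1096 to 1256 CPM in the mutant mES libraries, within the WT range of 1101 to 1258 CPM but for a single LBRKO library at 1096 CPM. In LBRKO EpiLCs it was at 744, 804, 666 and 730 CPM against 513 to 723 CPM in WT (0.27 ± 0.07, adjusted p = 0.0036). Against WT EpiLC replicates 1 to 4 (538 ± 31.6 CPM, SD) that difference was 0.45, and against replicates 5 to 8 (684 ± 37.3 CPM), which share the depth of LBRKO, it was 0.11. In QKO and TKO EpiLCs *Uhrf1* turned sign between the sets (0.23 and -0.12 in QKO, 0.18 and -0.16 in TKO).

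*Dppa3* behaved unlike *Dnmt1* and *Uhrf1* and was lower than WT in LBRKO at both stages and higher in TKO and QKO EpiLCs. In mES cells LBRKO held 7.11, 8.05, 11.5 and 16.1 CPM, below every WT library (17.6, 28.0 and 35.2 CPM as lowest, median and highest), and *Dppa3* fell by 1.31 ± 0.19 (2.47-fold, adjusted p = 1.3e-06). The lower 2 values were those of the replicates with more *Lbr* mRNA, whereas in LBRKO EpiLCs those replicates held the higher *Dppa3* values. WT replicates 1 to 4 (32.1 ± 2.03 CPM) lay above replicates 5 to 8 (20.7 ± 3.67 CPM), and the difference was -1.59 against the first set and -0.96, under 2-fold, against the second, which shares the depth of LBRKO. QKO mES cells held 23.1, 16.1, 16.6 and 17.4 CPM, inside and just below the WT range (-0.53 ± 0.19, adjusted p = 0.02), and this was -0.81 against the first WT set and -0.18 against the second. TKO mES cells held 27.6, 20.6, 21.3 and 20.8 CPM and overlapped WT (adjusted p = 0.44), with -0.51 against the first WT set and 0.12 against the second. QKO exceeded LBRKO in every library (0.78 ± 0.21, adjusted p = 0.003).

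Once in EpiLCs, *Dppa3* was at 3.71, 2.17, 1.68 and 2.48 CPM in TKO and 4.43, 3.65, 3.67 and 3.56 CPM in QKO, all above the highest WT library (1.27 CPM). In LBRKO it was at 0.704, 0.690, 0.293 and 0.554 CPM, overlapping the lower WT libraries (from 0.679 CPM). The gene rose by 1.37 ± 0.24 in TKO (2.59-fold, adjusted p = 5.3e-05) and 1.99 ± 0.23 in QKO (3.97-fold, adjusted p = 6.9e-10), and was lower by 0.79 ± 0.29 in LBRKO (adjusted p = 0.039), a difference that missed the threshold against WT replicates 5 to 8 (-0.67). QKO exceeded LBRKO by 2.78 ± 0.29 (6.86-fold, adjusted p = 1.5e-10) and TKO by 0.62 ± 0.25 (adjusted p = 0.047). Both WT sets gave calls in TKO (1.24 and 1.49) and QKO (1.86 and 2.11). The sums over the 6 naive markers were 134 to 161 CPM in TKO EpiLCs and 146 to 173 CPM in QKO EpiLCs, within the WT range of 106 to 174 CPM. In QKO EpiLCs that sum held opposite moves, with *Esrrb*, *Zfp42* (1.26) and *Tbx3* (1.07) higher and *Nanog* (-1.40) lower past both thresholds, and the part of these in the *Dppa3* value was not tested.

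*Dppa3* and *Tet3* lie on chromosome 6, whose 1160 tested genes had a median log2 fold change of 0.38 in LBRKO mES cells, 0.37 in LBRKO EpiLCs and between -0.16 and -0.08 in TKO and QKO. The part of chromosome number in the results was not tested. With that median subtracted, *Dppa3* was lower by 1.68 in LBRKO mES cells and by 1.15 in LBRKO EpiLCs, past 2-fold at both stages, and *Tet3* in LBRKO mES cells went from 0.98 to 0.60. For QKO against LBRKO mES cells the chromosome 6 median was -0.45. Its subtraction took *Tet3* from -0.60 to -0.15 and *Dppa3* from 0.78 to 1.23, past 2-fold.

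The TET genes differed in where they departed from WT. *Tet1* rose in QKO EpiLCs, at 1050, 995, 1021 and 1099 CPM against 355, 536 and 636 CPM (lowest, median and highest) in WT, by 1.02 ± 0.14 (2.03-fold, adjusted p = 3.4e-08). All QKO libraries lay above those of WT, TKO (495 to 593 CPM) and LBRKO (440 to 966 CPM). The change stood on the 2-fold line and was 0.97 against WT replicates 1 to 4, and without WT EpiLC replicate 1 or 8 it was also under 2-fold (lowest 0.96). In LBRKO EpiLCs the values of *Tet1* were 490, 619, 966 and 440 CPM, the widest spread of the 8 groups for this gene (629 ± 237 CPM, SD, n = 4), and the difference from WT missed the threshold (adjusted p = 0.12), as it did in every mutant mES group and in TKO EpiLCs.

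*Tet2* was higher in QKO mES cells, at 329, 318, 360 and 330 CPM against 140, 174 and 212 CPM (lowest, median and highest) in WT, a difference of 0.93 ± 0.14 (1.91-fold, adjusted p = 1e-06) without overlap. It was 1.09, past 2-fold, against WT replicates 1 to 4 and 0.79 against replicates 5 to 8. In these QKO mES cells the naive markers summed to 5010 to 5200 CPM, above WT (3972 to 4666 CPM), with *Zfp42* (1.03) past both thresholds, while the trophectoderm sum (44.8 to 51.9 CPM against 78.4 to 98.7) and the primitive endoderm sum (3.22 to 5.08 CPM against 8.11 to 9.79) lay below WT. Within the trophectoderm list *Gata3* (2.36) rose while *Krt7* (-4.82) and *Eomes* (-1.45) fell. The part of these markers in the *Tet2* value was not tested. LBRKO mES cells (211, 195, 165 and 123 CPM) and TKO mES cells (187, 197, 221 and 220 CPM) overlapped WT, and QKO exceeded LBRKO by 0.95 ± 0.17 and TKO by 0.70 ± 0.17 (adjusted p = 1.7e-05 and 0.0025). In EpiLCs the pattern was another: *Tet2* rose in LBRKO, at 40.9, 53.4, 51.1 and 30.2 CPM against 11.1, 16.6 and 24.8 CPM in WT (1.30 ± 0.15, 2.46-fold, adjusted p = 5.6e-09), and QKO EpiLCs (19.2, 18.8, 22.4 and 23.7 CPM) lay 1.06 ± 0.18 below LBRKO (adjusted p = 5.7e-06) and within the WT range, with -0.06 and 0.59 against the 2 WT sets. The rise in LBRKO was 1.00 against WT replicates 1 to 4 and 1.65 against replicates 5 to 8, past 2-fold with both. In these LBRKO EpiLCs the 6 naive markers summed to 198 to 297 CPM against 106 to 174 CPM in WT, with *Esrrb* (2.32) and *Zfp42* (1.53) past both thresholds and no defining marker at 0, and the part of this in the *Tet2* value was not tested.

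*Tet3* was higher in LBRKO mES cells at 66.0, 55.2, 62.7 and 48.1 CPM, above all WT libraries (23.7, 29.7 and 35.1 CPM as lowest, median and highest), by 0.98 ± 0.11 (1.97-fold, adjusted p = 1.8e-09). The difference crossed 2-fold without WT mES replicate 6 or LBRKO mES replicate 4 (highest 1.03). QKO mES cells (35.0, 39.1, 40.6 and 38.4 CPM) were higher than WT by 0.38 ± 0.11 (adjusted p = 0.0051), overlapping it at a single library, and lower than LBRKO by 0.60 (adjusted p = 0.00017). In EpiLCs no mutant passed the adjusted p for *Tet3*.

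**Figure D3:**
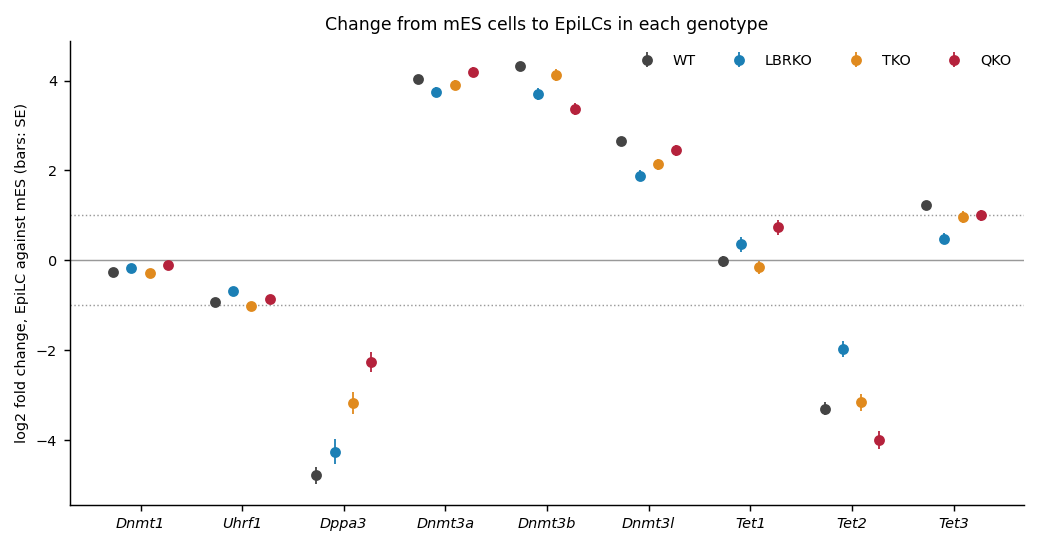
Log2 fold change from mES cells to EpiLCs (y axis) of each gene in each genotype, with standard errors as bars and dotted lines at 2-fold. *Dppa3* goes down by less in QKO (-2.26) than in WT (-4.78), *Tet2* goes down least in LBRKO (-1.98), and *Dnmt3b* rises least in QKO (3.37).

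The passage itself was then compared between genotypes, which asks whether a gene's change between stages differed from that in WT. Between stages, 5 (LBRKO), 6 (TKO) and 6 (QKO) of the 9 genes passed both thresholds, beside 26.5%, 30.3% and 30.3% of all tested genes, and 8 genes each at any fold, beside 52.3%, 54.9% and 55.6%. *Dnmt3a*, *Dnmt3b* and *Dnmt3l* rose, and *Dppa3* and *Tet2* fell, in each genotype. *Uhrf1* fell past 2-fold in TKO (-1.01 ± 0.08) and *Tet3* rose past it in QKO (1.00 ± 0.13), both at the line, and the *Uhrf1* call was lost without TKO EpiLC replicate 1 (-0.94) and the *Tet3* call without any of 5 libraries (lowest 0.93).

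The test of the difference from WT put 1 gene past both thresholds in each mutant, and 4, 2 and 4 genes at any fold in LBRKO, TKO and QKO, beside 15.5%, 8.44% and 29.8% of all genes. In LBRKO this was *Tet2*, whose fall was smaller by 1.32 ± 0.22 on the log2 scale (adjusted p = 1.3e-05, higher in 3.12% of all genes), and it was 0.86, under 2-fold, against WT replicates 1 to 4. In TKO and QKO it was *Dppa3*, whose fall was smaller by 1.60 ± 0.31 (adjusted p = 0.00029, 1.88% of all genes) and 2.52 ± 0.30 (5.72-fold, adjusted p = 5.4e-09, 6.94% of all genes). *Dnmt3b* rose less than in WT by 0.62 in LBRKO (adjusted p = 0.0017) and 0.95 in QKO (adjusted p = 1.4e-06), under 2-fold in both, and the QKO value was -1.24, past 2-fold, against WT replicates 1 to 4 and -0.74 against replicates 5 to 8. *Dnmt3l*, already high in mutant mES cells, rose less than in WT by 0.76 in LBRKO (adjusted p = 9.7e-05) and 0.51 in TKO (adjusted p = 0.017). The TKO value was -0.71 against WT replicates 1 to 4 and -0.34 against replicates 5 to 8, the second missing the adjusted p threshold. *Tet3* rose less in LBRKO by 0.74 (adjusted p = 0.00046). In QKO *Tet1* was raised over the passage, by 0.76 more than in WT (adjusted p = 0.0028), and *Tet2* fell further by 0.69 (adjusted p = 0.013), which was 1.15 against WT replicates 1 to 4 and 0.20 against replicates 5 to 8.

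With single, triple and quadruple mutants at hand, the QKO change could be set against the LBRKO change plus the TKO change on the log2 scale. In mES cells 2 genes departed past both thresholds, where 7.50% of all tested genes did. *Dnmt3l* in QKO fell short of the sum by 1.92 ± 0.15 (3.79-fold, adjusted p = 6.4e-13), its QKO level being below that of LBRKO alone. *Dppa3* lay above the sum by 1.00 ± 0.28 (adjusted p = 0.0091), a value on the 2-fold line that was under it when any of 10 of the 20 libraries was left out (lowest 0.87) and 0.65 against WT replicates 5 to 8. *Tet2* lay above the sum by 0.71 (adjusted p = 0.023) and *Tet3* below it by 0.75 (adjusted p = 0.00091), making 4 genes past the adjusted p beside 17.6% of all. With the chromosome 6 median subtracted, the departure in mES cells was -0.45 for *Tet3* and 1.31 for *Dppa3*, and that of *Dppa3* in EpiLCs was 1.76. In EpiLCs 2 genes departed as well (background 8.05%, with 4 past the adjusted p beside 24.3%), *Dppa3* above the sum by 1.40 ± 0.38 (adjusted p = 0.0054) and *Tet2* below it by 1.44 ± 0.24 (adjusted p = 1.2e-05). *Dnmt3l* again fell short, by 0.86 ± 0.15 (adjusted p = 2.7e-05), and *Tet1* exceeded the sum by 0.60 ± 0.22 (adjusted p = 0.037), both under 2-fold.

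**Figure D4:**
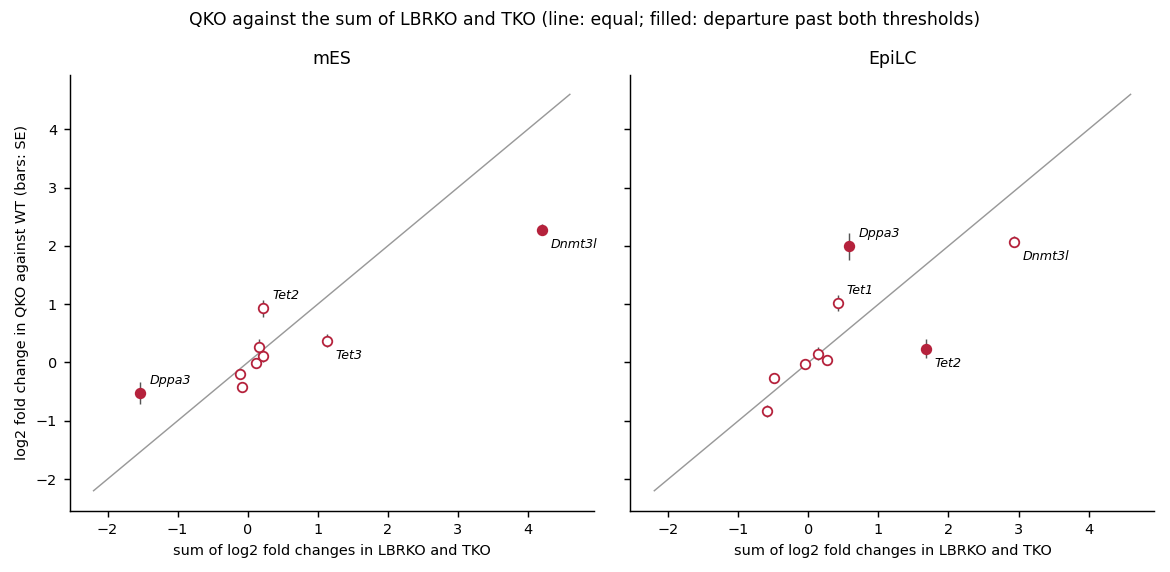
Log2 fold change in QKO against WT (y axis, standard errors as bars) over the LBRKO change plus the TKO change (x axis) for the 9 genes at each stage; the line marks equality and filled points departed past both thresholds. *Dnmt3l* lies 1.92 below the line in mES cells, and in EpiLCs *Dppa3* lies 1.40 above and *Tet2* 1.44 below it.

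Set directly against its parent line TKO, QKO passed both thresholds for 0 of the 9 genes in mES cells (background 6.21%). By edgeR's quasi-likelihood test 4 passed the adjusted p at any fold there (20.5% of all genes) and also 4 the unadjusted p of 0.05, and DESeq2 called 0 as well. In EpiLCs it passed both thresholds for *Dnmt3l* alone, 1 gene (15.3%), with 4 past the adjusted p (41.9%). Among the 4 in mES cells, *Dnmt1* and *Dnmt3a* were lower and *Dnmt3l* and *Tet2* higher. Against LBRKO, QKO passed both for 0 genes in mES cells by edgeR and by DESeq2 (18.0%), with 5 past edgeR's adjusted p (41.7%) and 6 past its unadjusted p, and for 2 genes in EpiLCs (15.4%, and 5 at any fold beside 43.5%), *Dppa3* higher and *Tet2* lower.

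*Dnmt3l* had neighbours that moved with it, a view taken after the likeness values described further on had been seen. The start of *Aire*, which encodes the autoimmune regulator of the thymus, lies at -6.232 kb from the start of the *Dnmt3l* reference transcript, on the other strand, and *Icosl*, which encodes the ligand of the T cell receptor ICOS, starts at 19.460 kb. *Aire* in mES cells was at 0.203 to 0.841 CPM in WT, 2.97 to 4.47 CPM in LBRKO, 1.22 to 1.94 CPM in TKO and 1.34 to 1.76 CPM in QKO. It rose in all 3 mutants without overlap (2.89 ± 0.19, 1.68 ± 0.21 and 1.62 ± 0.22). In EpiLCs it was at 3.08 to 4.90 CPM in WT and reached 19.2 to 23.6 CPM in LBRKO (2.59 ± 0.15) and 23.5 to 31.7 CPM in QKO (2.92 ± 0.15), with 0.65 ± 0.16 in TKO. Its exons share 67 bp, 2.24% of the counted sequence of *Dnmt3l*, and no source used here gives the counting's strand setting, so reads in that stretch cannot be assigned to one gene.

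*Icosl* rose by 1.56, 1.48 and 1.47 in LBRKO, TKO and QKO mES cells and by 1.04 and 1.32 in LBRKO and QKO EpiLCs. Of the 11 genes tested within 250 kb of the *Dnmt3l* start, *Dnmt3l* included, 4 rose in LBRKO mES cells, 3 in TKO and 5 in QKO, and in EpiLCs 3 rose in LBRKO, 0 in TKO (edgeR, with 4 past an unadjusted p of 0.05) and 4 in QKO. Those that fell were *Lrrc3* in QKO at both stages and *Pfkl* in QKO EpiLCs. *Cfap410*, *Gatd3a*, *Pwp2* and *Trappc10* passed both thresholds in none of these comparisons. The higher calls over all tested genes were 3.06%, 2.68% and 10.6% for the mES mutants and 3.04%, 1.44% and 13.0% for the EpiLC mutants. The counts hold *Dnmt3l*, *Aire* and *Icosl*, whose values prompted this view and which were the 3 that rose in TKO mES cells. They are therefore a description and no test of the region. In the WT passage 7 of the 11 rose, where 31.1% of all tested genes passed both thresholds in either direction.

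**Figure D5:**
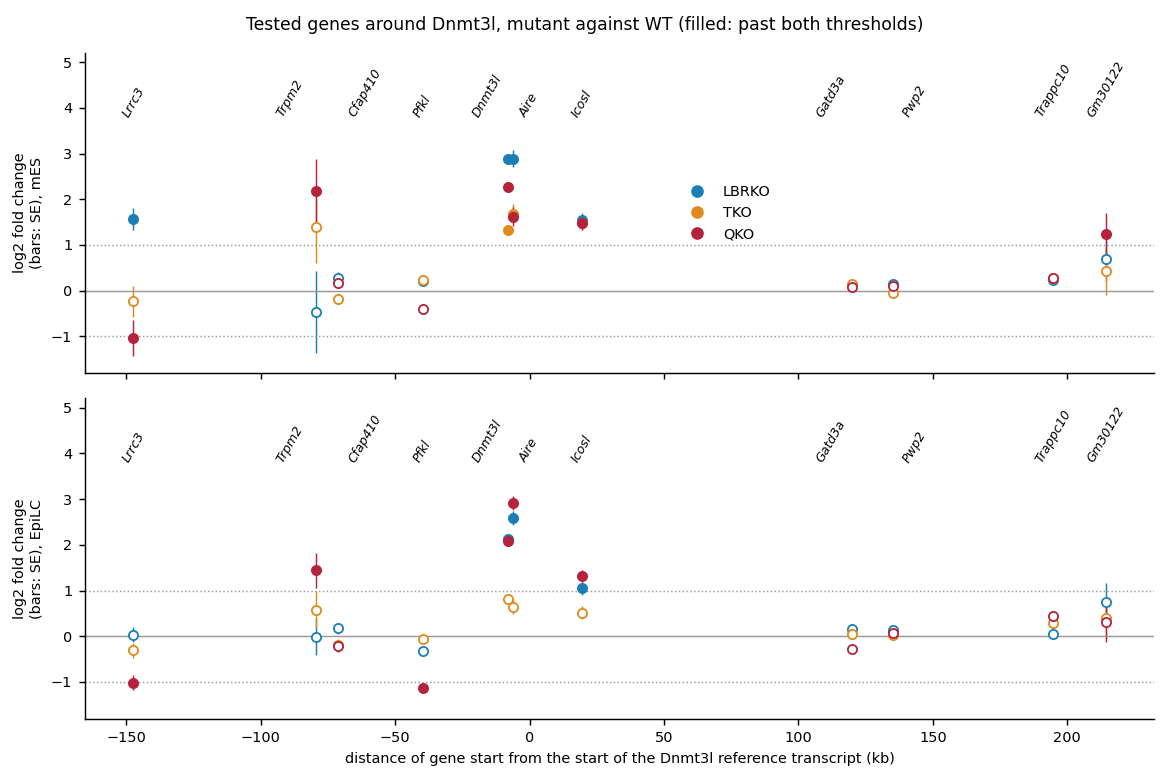
Log2 fold change against WT (y axis, standard errors as bars) of the 11 tested genes within 250 kb of *Dnmt3l*, by distance of the gene's start from the start of the *Dnmt3l* reference transcript (x axis, kb), in mES cells (top) and EpiLCs (bottom); filled points passed both thresholds. In mES cells *Aire*, *Dnmt3l* and *Icosl* are filled in all 3 mutants, and genes from 119.953 kb on are filled for *Gm30122* in QKO alone.

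Which genes of the whole table were most like each member was asked by Pearson's r of log2 CPM over the 40 libraries, among 11404 genes with a mean of at least 5 CPM in their highest group. The libraries share 2 stages and 4 genotypes, which r contains, so it is given as a description. For *Dnmt3l* the leading genes were *Aire* (0.96), *Icosl* (0.93) and *Impdh1* (0.92). *Dnmt3a* was led by *Rxrg*, *Car4* and *Gpm6a* (0.9953 to 0.9947), and *Dnmt3b* by *Dcn*, *Rxrg* and *Cacng7* (0.9945 to 0.9926), and these 2 members had 0.99 with each other. *Uhrf1* was closest to *Tprn*, *Hap1* and *Tmem50b* (0.98 each), *Tet2* to *Zfp704* (0.99), *Cobl* and *Galnt1* (both 0.98), *Dppa3* to *Icam1* (0.97), *Gtsf1l* and *Fam81a* (both 0.96) and *Tet3* to *Dennd5b* (0.96), *Wipf1* (0.94) and *Dock3* (0.93). *Dnmt1* reached 0.91 with *Sdha*, 0.88 with *Tox4* and 0.87 with *Dnmbp*. *Tet1* reached 0.92 with *Pou2f1*, 0.90 with *Srgap2* and 0.88 with *Rc3h2*, and with the other 8 members its r lay between -0.24 and 0.39. Between other members *Tet2* had -0.96 with *Dnmt3a* and 0.94 with *Uhrf1*, and *Dnmt3l* had 0.86 with *Tet3*.

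Other genes of the pathway were counted from 7 lists, each beside the background shares above. Those shares are for both directions together or for genes that rose, and none was taken for genes that fell alone. Among 10 partners of maintenance methylation 0 rose in any mutant against WT by edgeR (4 to 8 had an unadjusted p under 0.05), and those that fell were *Cdca7l*, a relative of the chromatin remodelling cofactor *Cdca7*, in TKO and QKO mES cells (-1.25 ± 0.08 and -1.76 ± 0.09) and *Uhrf2*, a relative of *Uhrf1*, in QKO mES cells, which fell by 1.00 ± 0.13. The 16 regulators of de novo methylation and imprint protection held 1 that rose, *Kdm2b*, which binds unmethylated CpG islands, in QKO mES cells (1.01 ± 0.05). In the WT passage 3 of them rose, led by *Dppa2* (1.92 ± 0.13), and 2 fell, *Prdm14* (-9.03 ± 0.17), a repressor of *Dnmt3b* in naive cells, and *Zfp57* (-1.62 ± 0.08), which protects imprints. The median log2 fold change of both lists in the 6 mutant comparisons lay between -0.28 and 0.05.

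Of 20 genes for removal of oxidised bases and partners of TET proteins, 2 fell in QKO mES cells, *Neil2*, a DNA glycosylase, by 1.82 ± 0.15 and *Gadd45a* by 1.16 ± 0.18, and in QKO EpiLCs *Gadd45a* (-1.19 ± 0.16) fell, as did *Idh2* (-1.01 ± 0.08), which makes the TET cofactor 2-oxoglutarate. In LBRKO mES cells *Neil3* fell (-1.34 ± 0.15), in LBRKO EpiLCs *Cxxc4* fell (-1.27 ± 0.31), and none passed both thresholds in TKO (edgeR, 6 and 8 with an unadjusted p under 0.05). Among 18 genes of methyl donor metabolism *Nnmt*, which methylates nicotinamide, fell in LBRKO, TKO and QKO mES cells (-1.56 ± 0.36, -4.92 ± 0.49 and -3.74 ± 0.44) and rose in LBRKO EpiLCs (1.68 ± 0.49). In QKO EpiLCs 3 fell, among them *Mthfd2* of mitochondrial folate metabolism (-1.49 ± 0.07) and *Ahcy*, which clears S-adenosylhomocysteine (-1.07 ± 0.09), and *Tdh* rose (1.08 ± 0.12). The 10 readers of methylated CpG had 0 past both thresholds in each mutant (edgeR, 3 to 8 with an unadjusted p under 0.05), as had the 18 DNA replication genes (6 to 13).

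Germline genes that promoter methylation is known to silence were the list with the most calls. Of 16, 4 rose in QKO mES cells, led by *Tex101* (2.36 ± 0.36), *Brdt* (1.43 ± 0.30) and *Sycp1* (1.42 ± 0.15), and 6 rose in QKO EpiLCs, led by *Sohlh2* (1.99 ± 0.11), *Hormad1* (1.73 ± 0.11) and *Asz1* (1.49 ± 0.27), with a list median of 0.89 beside -0.01 for all genes and higher calls among 13.0% of all genes. In LBRKO 1 rose and 2 fell at each stage, *Brdt* up and *Sohlh2* and *Mael* down in mES cells, and *Asz1* up and *Slc25a31* and *Taf7l* down in EpiLCs. In TKO mES cells *Sycp1* rose and *Tdrd1* and *Slc25a31* fell, and in TKO EpiLCs 0 passed both thresholds (edgeR, 5 with an unadjusted p under 0.05). In the WT passage, in which *Dnmt3a*, *Dnmt3b* and *Dnmt3l* rose, 9 of these 16 genes rose as well, led by *Tdrd1* (6.18 ± 0.14), *Mael* (4.22 ± 0.12) and *Taf7l* (4.14 ± 0.17), and 2 fell, among them *Rpl10l* (-2.21).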

How the data were processed

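Total RNA of 40 cultures had been sequenced with a stranded kit. Per the submitters' processing notes the authors used cutadapt 2.5, STAR 2.7.10a, SAMtools 1.10 and featureCounts 1.6.4 with GRCm39, and deposited raw counts per gene. No source used here gives the counting's strand setting. Of the 56748 gene identifiers, 56017 were found in the GENCODE M39 annotation used here for positions, exons and start regions, while the study had counted on release M30.

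Counts were scaled by TMM and tested with edgeR 4.0.16 (quasi-likelihood, all 40 libraries and 8 groups in one fit, filterByExpr) in R 4.3.3, with Benjamini-Hochberg adjustment over 23399 genes and 19 comparisons fitted as contrasts of that model. No covariate was used. Standard errors were derived from the fold change and the test statistic. CPM were taken after TMM, and log2 CPM used a prior count of 2. Alternatives were DESeq2 1.42.0, its size factors in edgeR, other filters, fits on the compared groups only, a replicate block, each WT set alone, counts that include multimapped reads, subtraction of the chromosome 6 median, and each library left out. On counts simulated for QKO against WT mES cells over 23399 genes, 72% of genes changed 2.5-fold and 86% of those changed 4-fold passed both thresholds. No 2 replicates agreed within sampling noise (lowest chi-square per degree of freedom 3.546 over 92 pairs).

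All 9 members were tested and counted in every comparison, values being printed for those the results turn on, and of each list at most the 3 genes with the largest changes past both thresholds. The members and lists were chosen with earlier results of these data known, and the neighbours of *Dnmt3l* after their values were seen. A gene of the list on removal of oxidised bases is not reported here.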

Additional observations from a re-analysis of the deposited data

Results flagged for a closer look

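In 6 of 72 groups of libraries, 1 library stood apart from the rest by Dixon's criterion, which chance alone meets in about 1 in 20 groups. WT mES replicate 1 was the highest for *Dnmt1* (497 CPM, the next 469 and the lowest 448 CPM). TKO mES replicate 1 was the highest for *Dppa3* (27.6 CPM, the next 21.3 and the lowest 20.6 CPM), and QKO EpiLC replicate 1 was the highest for the same gene (4.43 CPM, the next 3.67 and the lowest 3.56 CPM). TKO EpiLC replicate 1 was the lowest for *Uhrf1* (522 CPM, the next 634 and the highest 647 CPM) and for *Tet2* (18.2 CPM, the next 24.0 and the highest 25.0 CPM). TKO mES replicate 3 was the lowest for *Dnmt3b* (144 CPM, the next 152 and the highest 154 CPM).

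Between genotypes, the change from mES cells to EpiLCs differed from that in WT past both thresholds for *Tet2* in LBRKO (1.32 on the log2 scale) and for *Dppa3* in TKO (1.60) and QKO (2.52), each by the test of the difference itself.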

How the results depend on the processing

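Of 3881 log2 fold changes recomputed for 171 results, 3839 stayed on their side of the pair of thresholds, 27 no longer passed both and 15 newly did. Sign changed in 117 recomputed values, all of results that had missed the adjusted p. The number of the 9 genes past both thresholds stayed within 1.5 times in 406 of 427 recounts. Against WT replicates 5 to 8 alone it was 1 in place of 2 in LBRKO mES cells (*Dppa3*, -0.96) and 1 for QKO mES cells against the sum (*Dppa3*, 0.65), where it was also 1 with no filter on low counts (0.98). With WT replicates 1 to 4 alone it was 2 in QKO mES cells (*Tet2*, 1.09), 0 for the passage of LBRKO against WT by edgeR (*Tet2*, 0.86) and 3 for that of QKO, and *Tet1* in QKO EpiLCs was 0.97. With a library left out it ranged from 0 to 1 for QKO against LBRKO mES cells (1 without LBRKO mES replicate 1, 2 or 4), from 1 to 2 for QKO against LBRKO EpiLCs (1 without LBRKO EpiLC replicate 2), from 1 to 2 for the passage of QKO against WT (2 without WT mES replicate 5, where *Dnmt3b* was -1.03) and from 1 to 2 for QKO mES cells against the sum (1 without any of 10 of the 20 libraries: WT mES replicates 1 to 4, LBRKO 1 and 2, TKO 2 to 4 and QKO 1). *Tet2* in QKO against LBRKO EpiLCs was -0.95 at its smallest, without LBRKO EpiLC replicate 2 or 3. Same-numbered libraries were not taken as paired, although *Lbr* mRNA in LBRKO and depth in WT split by the same numbers at both stages. Their deviations correlated by 0.159 on average between WT mES cells and WT EpiLCs (0.00718 to 0.451), against -0.0225 for other numbers. Between the LBRKO stages the average was 0.153 (-0.156 to 0.358), against -0.0517. It was 0.0241 between the TKO stages and 0.0409 between the QKO stages. The labels do not say whether same-numbered libraries were made together. With the replicate block LBRKO EpiLCs had 3 genes past both thresholds in place of 2, *Dppa3* joining at -1.07, and the other counts were within 1.5 times. The share of higher among all called genes in TKO EpiLCs went from 49.3% to 60.1% against WT replicates 5 to 8. Depth limits *Dppa3* in EpiLCs most, with as few as 14 reads in a library. The causes were not tested.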
